A study of Mus musculus with 50 samples.

Results

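The genes described here are 9 glial marker genes that serve as a gauge of glial RNA in libraries made from sorted motor neurons. They were chosen by symbol, and all 9 were found among the 55385 genes listed in the deposited expression tables. The set holds 5 astrocyte markers (Aqp4, Gfap, Aldh1l1, Slc1a2 and Slc1a3), 3 microglia markers (Aif1, Cx3cr1 and Csf1r) and 1 oligodendrocyte marker (Mbp). The study followed mouse motor neurons as they matured in the spinal cord and asked how far motor neurons made from embryonic stem cells follow the same course in a dish, where they grow on a layer of astrocytes. RNA was sequenced in 28 libraries and open chromatin (ATAC-seq) was profiled in 22.

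In tissue, E10.5 libraries (3 replicates) were whole-cell RNA from GFP-positive cells sorted from C57BL/6 HB9-GFP spinal cords, in which the transgene marks newly born motor neurons. All later tissue libraries were nuclear RNA from the spinal cords of C57BL/6 Chat-Cre;SUN1-GFP-3xMYC mice, taken at E13.5 (2 replicates), P4 (3), P13 (2), P21 (3), P56 (3) and 2 years (2), and tissue from several animals was pooled in a library. In this line a tagged nuclear membrane protein is switched on in cells that express choline acetyltransferase, so the tagged nuclei pulled down by the INTACT method include those of cholinergic cells other than motor neurons. The methods describe the nuclei of E13.5 and P4 as less pure than those of later ages, with nuclei of blood vessels among them. The cultured cells came from 1 stem cell line of the same genotype and also gave nuclear RNA. They were taken at DIV0 (day 0 in vitro, from embryoid bodies before any contact with astrocytes, 2 replicates), DIV7 (2) and DIV28 (3), and at DIV28 after growth throughout in 1 µM tetrodotoxin (TTX, a blocker of voltage-gated sodium channels; 3). From plating onward the cells grew on primary astrocytes of early postnatal mouse cortex that had been shaken to lower the number of microglia. Long-term cultures also received the growth factors GDNF, BDNF, CNTF and IGF and, for part of the time, uridine with fluorodeoxyuridine, which stops dividing cells. TTX is the 1 treatment that the labels name.

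Astrocytes clear glutamate and potassium from the space around synapses, regulate water and wrap blood vessels. Aqp4 encodes the water channel of their vessel-facing endfeet, Gfap an intermediate filament protein, Aldh1l1 a folate-metabolizing enzyme, and Slc1a2 (GLT-1) and Slc1a3 (GLAST) the main glutamate transporters of the brain. Slc1a3 is also a gene of radial glia, and Slc1a2 transcripts are known in some neurons, so neither is exclusive to astrocytes. Microglia are the resident macrophages of the nervous system. Csf1r is the receptor for the growth factor that keeps them alive, Cx3cr1 the receptor for a chemokine made by neurons, and Aif1 (IBA1) an actin-binding protein of these cells. Oligodendrocytes make myelin, and Mbp encodes myelin basic protein, one of its main structural proteins. Mbp also has an upstream start, from which the longer golli transcripts are made, and these are known in neurons and blood cells as well as in oligodendrocytes. A bulk library cannot tell fewer glial cells or nuclei from less RNA in each, nor glial RNA carried along from RNA made in the motor neurons themselves.

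The libraries held between 2704682 and 21823500 counts. Levels are given as normalized counts, that is expected read counts divided by a size factor for each library, and a total of 3 counts, taken as the limit of detection, was worth between 0.969 and 5.63 normalized counts. Intervals and limits based on counts cover counting error only. The 8 genes of a motor neuron list (Chat, Slc5a7, Slc18a3, Isl1, Mnx1, Prph, Snap25 and Tubb3) were detected in every group. Their summed level lay between 2719 and 16940 normalized counts, and Snap25 and Tubb3 are not exclusive to motor neurons. The library titled DIV0 replicate 3 carries a DIV28 name on its deposited file, and the numbers of replicates listed by the study fit DIV28, so it was taken as DIV28 replicate 3. DIV28 replicate 3 and TTX replicate 3 stand apart from the other DIV28 libraries. They had the highest Gfap and Aqp4 levels of their groups, and the summed level of 5 fibroblast genes was 2.19 and 5.05 in them against 311 to 1481 normalized counts in the other 4. Their motor neuron sums, 9428 and 9724, were below the other 4, which lay between 13750 and 16940. Several of the member results that rest on DIV28 are therefore also given without replicate 3. Nothing in the labels says that tissue replicates came from separate litters, so p-values measure the spread between these libraries.

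Several of the members have more than 1 start site. The sequences below run from 250 bases before to 50 bases after a protein-coding start and are shown because the ATAC peaks described below differ between these starts. They come from the RefSeq GRCm38.p6 genome, the same build as the mm10 files, and are written 5′ to 3′ on the strand of the gene. Capitals mark a match to the STAT motif TTCNNNGAA or to the NFI recognition sequence TTGGC on either strand. Both families of factors are known regulators of astrocyte genes. The windows are Gfap (chr11:102897151-102897450, minus strand), the upstream start of Slc1a2 (chr2:102658409-102658708, plus), an internal start of Slc1a2 (chr2:102706106-102706405, plus), Slc1a3 (chr15:8710715-8711014, minus) and Cx3cr1 (chr9:120068247-120068546, minus).
Gfap start: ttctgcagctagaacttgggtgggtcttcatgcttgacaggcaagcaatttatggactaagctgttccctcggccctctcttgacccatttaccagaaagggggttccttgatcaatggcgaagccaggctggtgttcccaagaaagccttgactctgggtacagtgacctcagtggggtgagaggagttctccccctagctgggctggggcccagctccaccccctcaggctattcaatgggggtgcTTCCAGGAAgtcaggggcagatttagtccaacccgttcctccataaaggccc
Slc1a2 upstream start: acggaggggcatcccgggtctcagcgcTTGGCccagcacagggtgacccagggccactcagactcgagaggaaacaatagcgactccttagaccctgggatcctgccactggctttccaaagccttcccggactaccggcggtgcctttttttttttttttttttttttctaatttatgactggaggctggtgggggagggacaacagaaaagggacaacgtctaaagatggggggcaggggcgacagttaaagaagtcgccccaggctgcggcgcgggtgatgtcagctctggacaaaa
Slc1a2 internal start: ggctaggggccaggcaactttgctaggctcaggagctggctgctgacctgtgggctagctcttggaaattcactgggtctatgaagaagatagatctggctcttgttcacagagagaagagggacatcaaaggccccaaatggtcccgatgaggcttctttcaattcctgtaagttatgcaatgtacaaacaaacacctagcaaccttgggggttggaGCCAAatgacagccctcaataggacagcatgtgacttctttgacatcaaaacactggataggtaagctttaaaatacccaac
Slc1a3 start: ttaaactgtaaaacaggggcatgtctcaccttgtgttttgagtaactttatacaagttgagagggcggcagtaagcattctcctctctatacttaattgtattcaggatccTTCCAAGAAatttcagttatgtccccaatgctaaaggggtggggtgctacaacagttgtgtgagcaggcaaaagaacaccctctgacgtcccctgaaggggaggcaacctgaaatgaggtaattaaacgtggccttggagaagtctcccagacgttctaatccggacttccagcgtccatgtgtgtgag
Cx3cr1 start: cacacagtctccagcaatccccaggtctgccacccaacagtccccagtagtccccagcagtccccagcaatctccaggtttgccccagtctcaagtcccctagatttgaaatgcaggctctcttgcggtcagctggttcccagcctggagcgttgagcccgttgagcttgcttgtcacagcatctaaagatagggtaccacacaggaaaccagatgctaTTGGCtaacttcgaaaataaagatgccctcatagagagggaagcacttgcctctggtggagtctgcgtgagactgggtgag

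The Gfap match to the STAT motif begins 2 bases before the start, and that of Slc1a3 begins 139 bases before it. Among 32851 RefSeq promoter windows of the same length, 8.3% held the STAT motif and 46.7% the NFI sequence TTGGC, so the second is too common to set a promoter apart. The palindromic NFI site, which joins TTGGC to its reverse complement and so contains it, was in 0.0365% of these windows and was not found in the 17 member windows. The same windows were searched on both strands for AP-1 (TGANTCA, in 7.81% of promoters), which was found at the Csf1r start and at the second Aqp4 start, and for PU.1 (GAGGAAGT, in 3.2%), which was not found. The upstream Slc1a2 window held 14 CpG dinucleotides and the internal window 1, against a median of 7 over all promoters. A match of letters is a description of the window only.

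On the GRCm38 assembly with the GENCODE vM21 annotation, Aqp4 lies at chr18:15389496-15410982 (minus strand), Gfap at chr11:102887336-102900912 (minus), Aldh1l1 at chr6:90486427-90600203 (plus), Slc1a2 at chr2:102658659-102790784 (plus) and Slc1a3 at chr15:8634124-8710764 (minus). Aif1 lies at chr17:35170991-35176068 (minus), Cx3cr1 at chr9:119901616-120069879 (minus), Csf1r at chr18:61100598-61132149 (plus) and Mbp at chr18:82475146-82585637 (plus). Exons of Aldh1l1, Slc1a2, Cx3cr1 and Csf1r overlap exons of genes on the other strand (Gm15756, Gm13872, Gm33858 and Hmgxb3). The counting is described with default parameters and no strand setting, so reads of the partner genes may be included in these 4.

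In tissue the astrocyte markers and Mbp did not share 1 course. Aqp4 and Gfap were near 0 in the embryo and peaked after birth, Slc1a3 was highest at E13.5 and P4 and then declined, Slc1a2 was high from E10.5 onward apart from a dip at E13.5, and Mbp was highest at P13. The plot of levels by library shows all 9 genes.

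**Figure D1:**
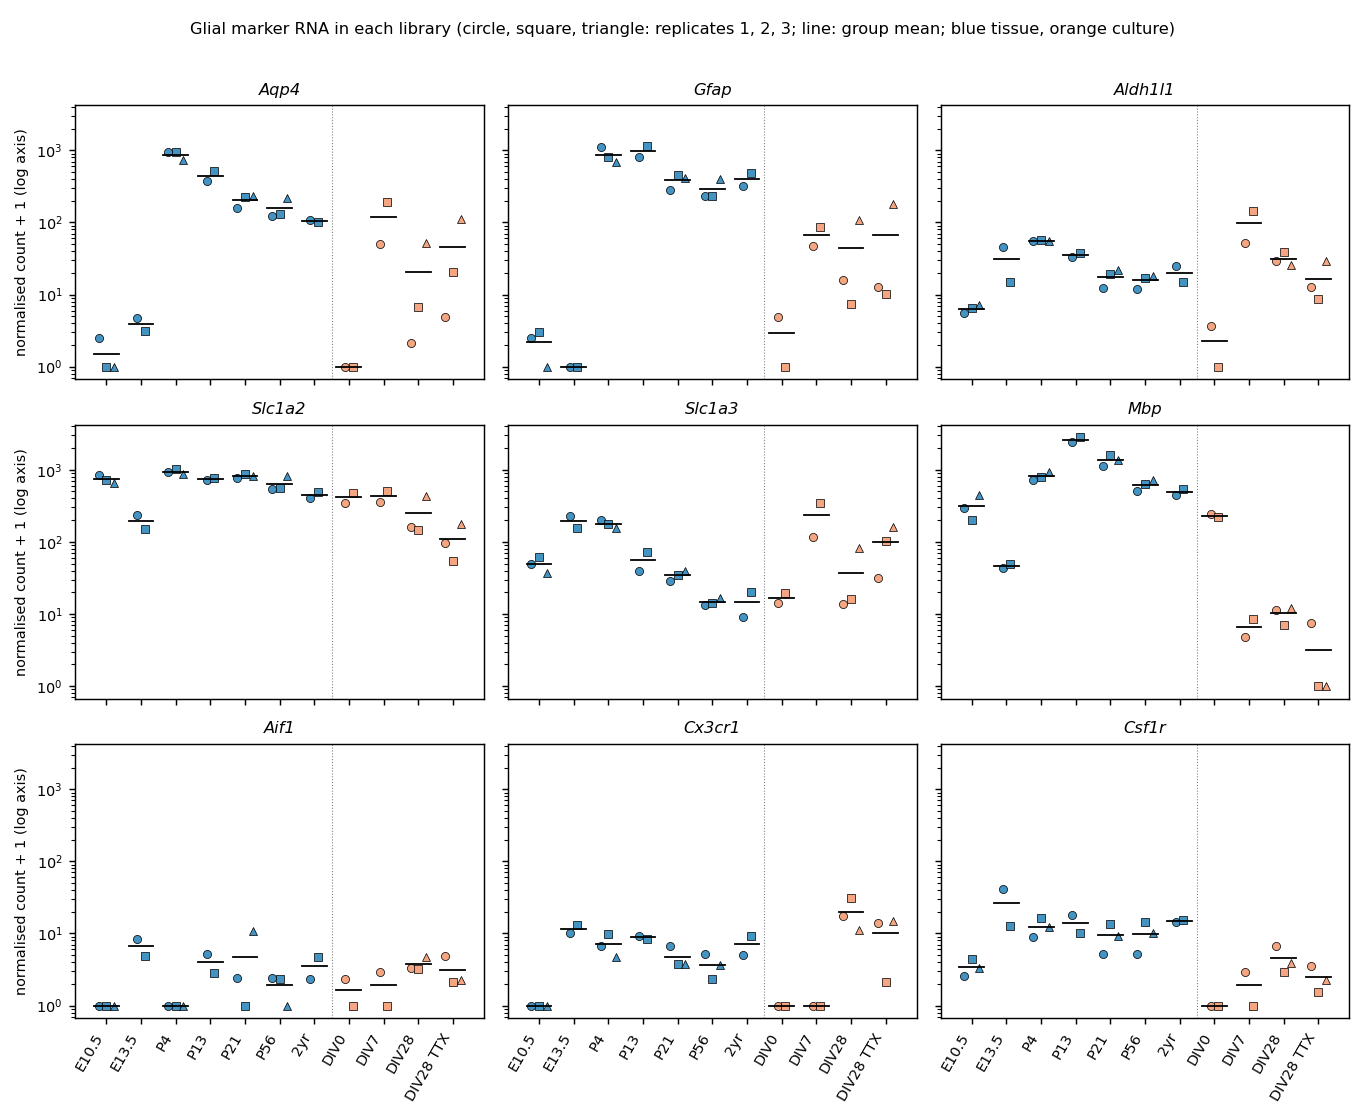
Normalized counts plus 1 (log axis) of each glial marker gene in each of the 28 RNA libraries, by group, with tissue on the left of the dotted line and culture on the right; points are libraries and lines are group means. Aqp4 rises from between 2.15 and 3.69 normalized counts at E13.5 to between 746 and 941 at P4, and the 3 microglia genes stay at or under 39.7 normalized counts.

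Between E13.5 and P4 the RNA of Aqp4, Gfap, Slc1a2 and Mbp rose. Aqp4 was at 3.69 and 2.15 normalized counts in the 2 E13.5 libraries and at 941, 935 and 746 in the 3 P4 libraries. The groups lie far apart, and the log2 fold change was 8.44 ± 0.43 (SE; edgeR quasi-likelihood test, adjusted p = 1.74e-10). Gfap had no count in either E13.5 library and stood at 1108, 818 and 684 normalized counts at P4, at least 429-fold higher when each library at 0 is set to 3 counts (edgeR adjusted p = 8.79e-10). Slc1a2 went from 192 ± 56.5 (SD, n = 2) to 944 ± 69.0 (SD, n = 3), a log2 change of 2.46 ± 0.22 (edgeR adjusted p = 3.92e-08). Mbp went from 45.3 ± 3.94 (SD, n = 2) to 808 ± 108 (SD, n = 3), a log2 change of 4.29 ± 0.32 (edgeR adjusted p = 6.74e-09). Slc1a3, with 227 and 155 normalized counts at E13.5 and 202, 175 and 154 at P4, did not separate the ages, and its small log2 change of 0.05 took the other sign with DESeq2 (-0.07) and with median-of-ratios factors (-0.07). Aldh1l1 was at 45.2 and 14.2 and then at 53.8, 56.8 and 54.9, and E13.5 replicate 1 decided the call: the log2 change of 1.12 ± 0.39 was not called (edgeR adjusted p = 0.0176), and without that library it was 2.11 and called.

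A gene was called changed when its unadjusted p was below 0.001 and its change at least 2-fold, the limits the study set. In the step from E13.5 to P4 these limits called 42.7% of all 15030 genes tested, and 4 of the 6 members that passed the filter on low counts. Aif1, Cx3cr1 and Csf1r were below the filter in every fit. Of a list of 20 other astrocyte genes 16 were tested, and 12 rose and 1 fell, where 23.8% of all genes tested rose, with a median log2 change of 2.64 against 0.12 over all genes tested. Gpr37l1 and Slc7a10, which encode a receptor and an amino acid transporter of astrocytes, went from 0 to 22.9 and from 0.923 to 35.3 normalized counts. Mlc1, an endfoot membrane protein gene, went from 1.60 to 49.8, and Ntsr2, a neurotensin receptor gene, from 2.39 to 88.0. Of 11 other oligodendrocyte genes tested, 8 rose and 1 fell, and their median log2 change was 3.13, or 2.99 with the gene at 0 set to its limit. Mobp went from 2.06 to 343 and Mag, a myelin adhesion protein gene, from 5.05 to 76.9 normalized counts. Mog and Ermn, which are also myelin genes, reached 16.2 and 21.6 from 0 and 0.462. RNA of vessel cells also differed between these ages. The summed level of 8 endothelial genes was 13710 to 25770 at E13.5 and 5756 to 7860 at P4, and that of 5 pericyte genes 2328 to 2417 and then 3382 to 5003. Their part in the member results was not tested.

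The earlier step, from E10.5 to E13.5, separated the 2 glutamate transporters. Slc1a2 fell from 854, 723 and 657 normalized counts to 232 and 152, a log2 change of -2.12 ± 0.21 (edgeR adjusted p = 1.33e-07). Slc1a3 rose from 48.1, 60.1 and 36.6 to 227 and 155, a log2 change of 1.82 ± 0.28 (edgeR adjusted p = 1.95e-05). Neither pair of groups overlaps. Mbp, at 295, 201 and 445 normalized counts in the E10.5 libraries, fell to 42.5 and 48.1, a log2 change of -2.94 ± 0.31 (edgeR adjusted p = 2.09e-07). Aldh1l1 rose from 5.40 ± 0.769 (SD, n = 3) to 29.7 ± 21.98 (SD, n = 2), but the call was lost without E13.5 replicate 1, where the log2 change was 1.21 in place of 2.21. In this step 44.1% of all genes tested were called, against 4 of the 6 members tested. RNA of other cell types rose as well. All 8 endothelial, 5 pericyte and 5 fibroblast genes and the 5 erythroid genes tested were called higher. The summed levels went from between 6.11 and 20.05 to between 13710 and 25770 normalized counts (endothelial), from 62.9 to 89.3 up to 2328 to 2417 (pericyte) and from 62.5 to 114 up to 2361 to 3788 (fibroblast). The erythroid sum went from 2.29 or less to 10440 and 10530. The motor neuron sums, 4541 to 12700 at E10.5 and 2719 and 5363 at E13.5, overlapped. The part of these cells in the member results was not tested. Whole-cell and nuclear RNA, and the 2 reporter lines, divide at the same point as the ages and cannot be told apart from them.

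At E10.5 the other oligodendrocyte genes were unevenly present. The 14 genes summed to between 352 and 454 normalized counts there, and Aspa, Gjb1 and Mog were at 0 in all 3 libraries. From E10.5 to E13.5, 3 of the 11 tested rose and 2 fell, in a step where 44.1% of all genes tested were called. Mobp and Myrf, a myelin transcription factor gene, were those that fell, from 48.4 to 2.06 and from 100.1 to 19.2 normalized counts. At DIV0 Mbp was at 240 and 219, and 8 of the 14 genes, among them Mog, Mag and Opalin, were at 0 in both libraries. The expression tables count all Mbp transcripts together, so golli and myelin transcripts cannot be told apart in these values.

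Between P4 and P13 the oligodendrocyte RNA rose and the astrocyte markers diverged. Mbp rose from 711, 788 and 925 to 2438 and 2819 normalized counts, a log2 change of 1.79 ± 0.25 (edgeR adjusted p = 3.9e-05). Of the 11 other oligodendrocyte genes tested, 10 rose and none fell, where 5.80% of all genes tested rose, with a median log2 change of 2.47 against 0.05 over all genes tested. Mal, a myelin membrane protein gene, went from 83.5 to 788, Ermn from 21.6 to 264 and Cldn11, a tight junction gene of myelin, from 30.7 to 192 normalized counts. Among the astrocyte members Slc1a3 was the 1 that fell, from 177 ± 24.3 (SD, n = 3) to 55.3 ± 24.3 (SD, n = 2), a log2 change of -1.62 ± 0.30 (edgeR adjusted p = 0.000571). Without P13 replicate 1 it was -1.22 and was not called. Aqp4 was at 370 and 512 at P13, below each P4 library, but its change of -0.91 ± 0.25 was not called (edgeR adjusted p = 0.0101). Gfap, at 809 and 1148, overlapped P4. In this step 13.3% of all genes tested were called. In the astrocyte list 1 gene of 16 rose and 1 fell: S100b, a calcium-binding protein gene that oligodendrocytes also use, went from 94.8 to 365, and Sox9, a glial transcription factor gene, from 121 to 41.6 normalized counts. RNA of vessel and blood cells fell in the same step: all 8 endothelial and 5 pericyte genes and the 5 erythroid genes tested were called lower. Their sums went from 5756 to 7860 down to 366 to 540 (endothelial), from 3382 to 5003 down to 319.7 to 406 (pericyte) and from 1138 to 1541 down to 241 to 298 normalized counts (erythroid), and their part in the member results was not tested.

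From P13 to P21 Gfap, Aqp4 and Mbp fell. Gfap was at 280, 460 and 416 normalized counts at P21, with a log2 change of -1.43 ± 0.29 (edgeR adjusted p = 0.00233). Aqp4 was at 157, 222 and 231, with a change of -1.20 ± 0.25 (edgeR adjusted p = 0.00248). Both calls rested on single libraries, since Gfap was at -1.18 and Aqp4 at -0.97 without P13 replicate 2, at -1.25 and -1.05 without P21 replicate 1, and none of these 4 values was called. Mbp fell to 1137, 1606 and 1385, a change of -1.02 ± 0.25 (edgeR adjusted p = 0.00728) that lay at the 2-fold limit and dropped under it with median-of-ratios factors (-0.93). The Mbp call was also lost without P13 replicate 1 (-1.10), P13 replicate 2 (-0.94), P21 replicate 1 (-0.90) or P21 replicate 3 (-1.02). Of all genes tested 7.30% were called, 226 higher and 871 lower (5.80% lower), and with median-of-ratios factors the split became 323 to 720. Of the other lists, Apoe, the lipid carrier gene of astrocytes, fell from 1142 to 372, and Sox10 and Cnp of oligodendrocytes from 143 to 41.0 and from 790 to 408 normalized counts. The call on Cnp was lost with median-of-ratios factors (-0.95), without P13 replicate 2 and without P21 replicate 1. The median log2 change was -0.74 for the 16 other astrocyte genes and -0.70 for the 11 other oligodendrocyte genes, against -0.07 over all genes tested. Of the vessel genes, 6 of 8 endothelial and 4 of 5 pericyte genes fell, with medians of -3.09 and -3.06. Their sums at P21 were 36.4 to 84.4 and 30.8 to 78.7 normalized counts, and their part was not tested.

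After P21 myelin RNA went on declining and the astrocyte members showed no called change. Mbp was at 503, 625 and 723 normalized counts at P56, a log2 change of -1.16 ± 0.23 from P21. The edgeR adjusted p was 0.0934, so this call holds only at the unadjusted limit, and it was also lost without P56 replicate 1 (-1.03). Of all genes tested 0.173% were called in this step, 26 genes, and among the 11 other oligodendrocyte genes 6 fell, where 0.126% of all genes tested fell, with a median log2 change of -1.45 against -0.03 over all genes tested. Mal went from 511 to 164, Cldn11 from 138 to 33.5 and Mog from 67.4 to 16.5 normalized counts, with edgeR adjusted p-values of 0.012, 0.012 and 0.0699. The hemoglobin genes Hba-a1, Hba-a2 and Hbb-bs were also called lower, with an erythroid sum of 203 to 385 at P21 and 72.6 to 99.1 at P56. The part of blood in the member results was not tested. Slc1a3 was at 28.0, 33.7 and 38.7 at P21 and at 12.4, 13.4 and 15.8 at P56. These groups do not overlap, but the change of -1.27 ± 0.38 was not called (edgeR adjusted p = 0.508) unless only these 2 groups were fitted.

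Between P56 and 2 years none of the 6 members tested was called, where 0.685% of all genes tested were. Gfap was at 231, 236 and 404 normalized counts at P56 and at 323 and 484 at 2 years, which overlap, with a log2 change of 0.57 ± 0.30 (edgeR adjusted p = 0.457). Aqp4 was at 122, 130 and 220 at P56 and at 108 and 102 at 2 years. These do not overlap, and the change of -0.52 ± 0.27 had an edgeR adjusted p of 0.458. Mbp was at 445 and 548 at 2 years. The intervals of these differences are wide with 2 and 3 libraries, so the values do not show that the levels stayed the same.

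**Figure D2:**
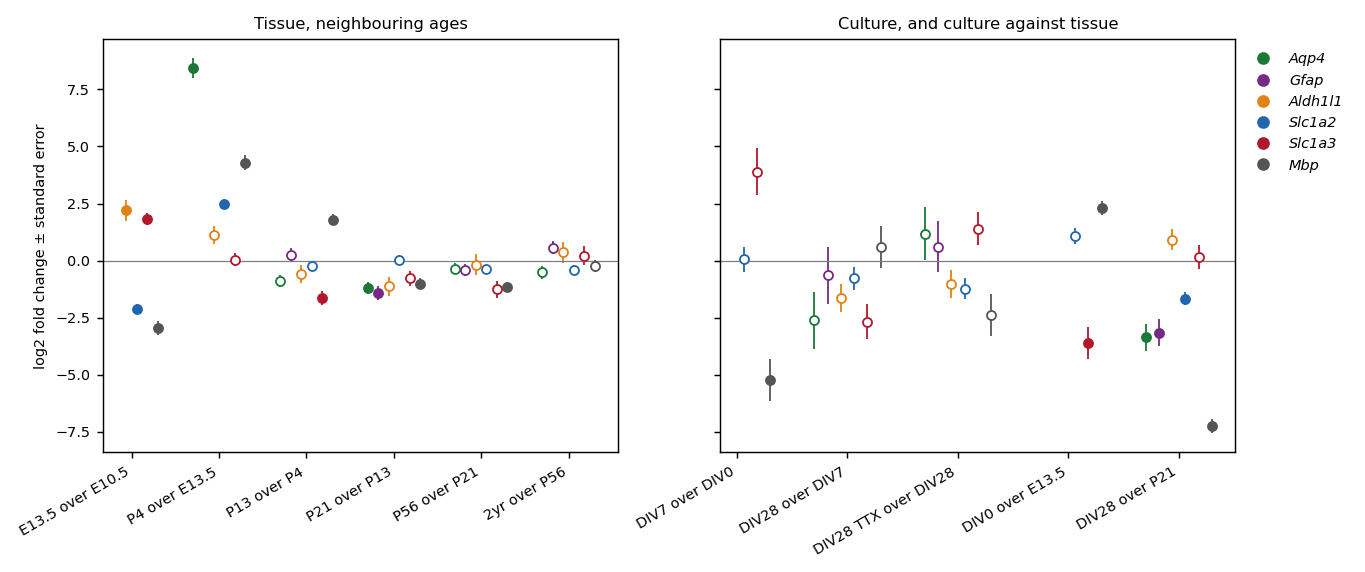
Log2 fold change with its standard error from the edgeR fit for Mbp and the astrocyte members, between neighbouring ages in tissue on the left and in culture and between culture and tissue on the right; filled points were called and open points were not. Values with 3 counts or fewer in either group are not drawn; the highest point is Aqp4 at P4 over E13.5, with 8.44, and the lowest is Mbp at DIV28 over P21, with -7.27.

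Compared per kilobase of exon, which allows genes to be set side by side, the glial RNA of the mature cord libraries was led by Mbp and Gfap. Mbp reached a mean of 310 and Gfap 232 normalized counts per kilobase at P13. At P56 they were at 72.9 and 68.8, and at 2 years Mbp was at 58.65 and Gfap at 95.7. Aqp4 reached 140 and Slc1a2 71.9 at P4, while Slc1a3 was at 20.7 and Aldh1l1 at 12.2 there. The microglia genes stayed at or under 6.88 per kilobase in every library.

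The make-up of the summed RNA of the 5 astrocyte marker genes differed between ages and dishes. Of the summed level of the 5 markers per kilobase, Slc1a2 made up 86.3% to 89.96% at E10.5 and 89.8% to 94.4% at DIV0. At E13.5 Slc1a3 made up 48.5% and 54.7%. At P13 Gfap made up 60.3% and 63.4%, and at 2 years 58.3% and 65.9%. Shares cannot say which gene moved, but they do not depend on the size factors. In culture at DIV28, Aldh1l1 made up 25.9% and 35.3% in replicates 1 and 2 and 6.75% in replicate 3, where Gfap made up 31.0%.

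**Figure D3:**
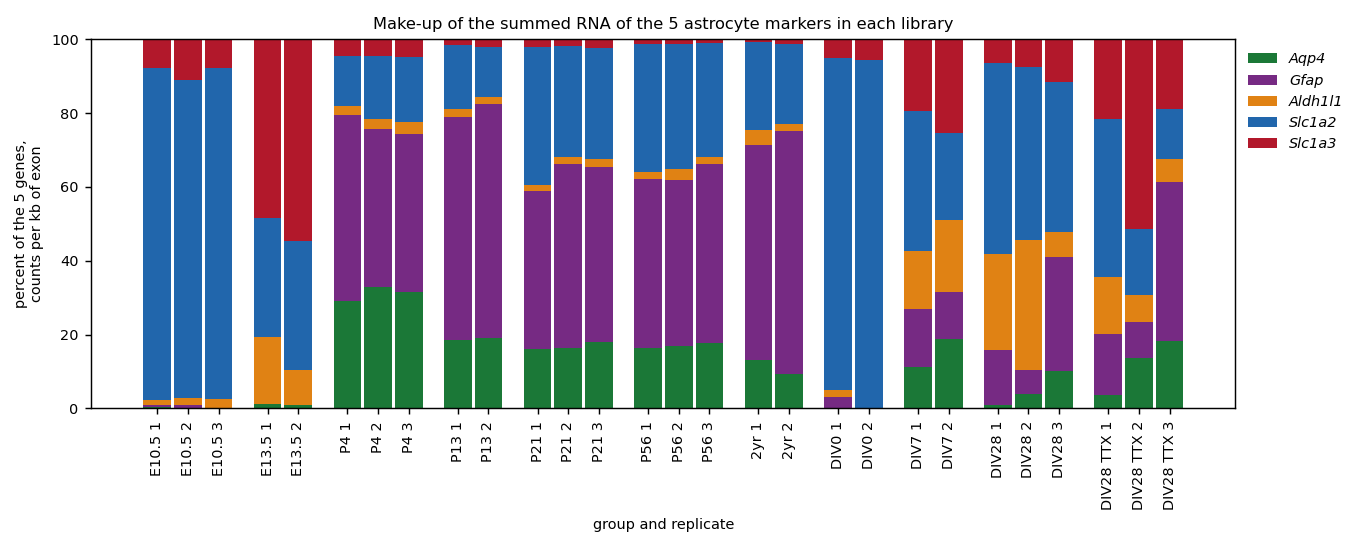
Share of each of the 5 astrocyte marker genes in their summed normalized counts per kilobase of exon, in percent, for each RNA library in order of group and replicate. Slc1a2 makes up at least 86.3% at E10.5 and DIV0, and Gfap is the largest share in every library from P4 to 2 years.

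The DIV0 cells had not met astrocytes, and in their libraries Aqp4, Gfap and Aldh1l1 were at or near 0. Aqp4 was at 0 in both, Gfap at 3.92 and 0 (3 counts in all), and Aldh1l1 at 2.61 and 0 normalized counts (2 counts in all). Of the 20 other astrocyte genes 9 were at 0 in both libraries, while the sum of the 20 was 769 and 838 normalized counts, against 2272 to 2782 at P21. That sum was also 2565 to 2993 at E10.5 and 2532 to 2931 at E13.5. Aqp4 and Gfap were near 0 at both embryonic ages, so the sum does not follow them. At DIV0 Slc1a2 was nevertheless at 350 and 475 normalized counts, and Slc1a3 at 13.1 and 18.3. Set against E13.5 nuclei from tissue, Slc1a3 was lower at DIV0 by a log2 change of -3.62 ± 0.70 (edgeR adjusted p = 0.000121) and Mbp higher by 2.31 ± 0.30 (edgeR adjusted p = 1.22e-06). Aldh1l1 was 17.1-fold higher at E13.5 than at DIV0 (95% counting interval 4.57 to 143; edgeR adjusted p = 0.000173). The Slc1a3 call was lost without DIV0 replicate 1 (-3.46, edgeR adjusted p = 0.00397). The Aldh1l1 call was lost without E13.5 replicate 1 or DIV0 replicate 2, with edgeR adjusted p-values of 0.0036 and 0.0044. Slc1a2, at 1.09 ± 0.35, was not called (edgeR adjusted p = 0.0107). Of all genes tested 39.4% were called in this comparison.

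After 7 days on astrocytes, RNA of most astrocyte members was higher than at DIV0, with a wide spread between the 2 DIV7 libraries. Aldh1l1 was at 50.7 and 142 normalized counts at DIV7, 74.4-fold above DIV0 (95% counting interval 20.2 to 620), and this rise was called (edgeR adjusted p = 0.00164), though not without DIV0 replicate 2 or DIV7 replicate 2, where the edgeR adjusted p was 0.0236 and 0.0198. Aqp4 was at 48.8 and 190, at least 28.1-fold above DIV0 when each DIV0 library is set to 3 counts. Gfap was at 46.9 and 86.7, 33.4-fold above DIV0 (95% counting interval 11.1 to 165), and Slc1a3 at 116 and 350. Every DIV7 library was above every DIV0 library for these 4 genes. How many of all genes separate these groups of 2 libraries was not counted. The changes of Aqp4, Gfap and Slc1a3 were not called, with edgeR adjusted p-values of 0.032, 0.0926 and 0.0162. Those of Aqp4 and Slc1a3 were called with DESeq2. Slc1a2 was at 353 and 500 and overlapped DIV0. Mbp fell from 240 and 219 to 3.75 and 7.65 normalized counts, a log2 change of -5.24 ± 0.93 (edgeR adjusted p = 0.00203), a call lost without DIV0 replicate 1 (-5.16), DIV7 replicate 1 (-4.93) or DIV7 replicate 2 (-5.94). Of all genes tested 11.2% were called.

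Other astrocyte genes, among them genes known from reactive astrocytes, were prominent at DIV7. Of 12 other astrocyte genes tested, 5 rose and none fell, where 8.36% of all genes tested rose, with a median log2 change of 3.22, or 2.2 with the 2 genes at 0 set to their limit, against 0.03 over all genes tested. Clu, which encodes the chaperone clusterin, went from 2.07 to 1039 and Apoe from 9.92 to 575 normalized counts, while Mlc1 went from 0 to 106 and the gap junction gene Gja1 from 5.56 to 93.5. Of 5 reactive astrocyte genes tested, 4 rose: Cd44, a hyaluronan receptor gene, went from 1.53 to 920, the protease inhibitor gene Serpina3n from 0 to 386, the cytokine receptor gene Osmr from 0 to 185, and the filament gene Vim from 841 to 2788. The rises of Mlc1 and Vim were not called without DIV0 replicate 1, DIV0 replicate 2 or DIV7 replicate 2. Fibroblast genes also differed between the 2 DIV7 libraries, with summed levels of 2275 and 130 normalized counts. Their part was not tested.

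By DIV28 the members were at lower means than at DIV7 apart from Mbp and the microglia genes, and none of the 6 tested was called, against 7.70% of all genes. Slc1a3 was at 12.7, 15.2 and 80.9 normalized counts, with a log2 change of -2.67 ± 0.78 from DIV7 (edgeR adjusted p = 0.0357). Without DIV28 replicate 3 the change was -4.01 and was called (edgeR adjusted p = 0.00583). Aqp4 was at 1.16, 5.81 and 51.0 and Gfap at 15.1, 6.46 and 106 normalized counts, so that replicate 3 alone reached the DIV7 range. Aldh1l1, at 27.8, 37.8 and 24.8, was below both DIV7 libraries and did not set replicate 3 apart, with a change of -1.65 ± 0.63 (edgeR adjusted p = 0.0892). Slc1a2 was at 162, 146 and 433. Of the 12 other astrocyte genes tested, Ntsr2 rose from 1.58 to 77.1, and Apoe and Gja1 fell from 575 to 73.4 and from 93.5 to 24.9 normalized counts, with a median log2 change over the 12 of -1.55 against 0.02 over all genes tested. The call on Gja1 was lost when any 1 of the 5 libraries was left out (-1.43 to -2.21), those on Apoe and Vim without DIV7 replicate 2, and that on Ntsr2 without either DIV7 library. Vim fell from 2788 to 797.

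Over the whole culture period, from DIV0 to DIV28, Mbp was the 1 member called, with a log2 change of -4.65 ± 0.72 (edgeR adjusted p = 0.000412), where 19.0% of all genes tested were called. Without DIV28 replicate 3 it was -4.83 and called. Aldh1l1 was 23.3-fold higher at DIV28 than at DIV0 (95% counting interval 6.36 to 194), with an edgeR adjusted p of 0.00557 but an unadjusted p of 0.00109, just over the limit, and it was not called without replicate 3 either (edgeR adjusted p = 0.00779). Gfap was 15.9-fold higher (95% counting interval 5.35 to 77.8), a value that rested on replicate 3, since its fitted log2 change went from 4.30 to 2.24 without it.

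Mbp and the other oligodendrocyte genes were close to absent from the cultures on astrocytes. Mbp was at 10.4, 6.14 and 10.9 normalized counts at DIV28, and 8 of the 14 other genes were at 0 in all 3 libraries, among them Sox10, Mag and Mog. The summed level of the 14 was 103 to 124 normalized counts at DIV28 against 6103 to 8234 at P21.

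Set against P21, DIV28 nuclei carried less RNA of Aqp4, Gfap, Slc1a2 and Mbp. The log2 differences were -3.36 ± 0.60 for Aqp4, -3.17 ± 0.59 for Gfap, -1.67 ± 0.29 for Slc1a2 and -7.27 ± 0.31 for Mbp, with edgeR adjusted p-values of 8.33e-05, 0.000132, 5.4e-05 and 2.82e-13. Every DIV28 library was below every P21 library for these genes, though the share of all genes that separate these groups was not counted. Without DIV28 replicate 3 the differences were larger for Aqp4 (-5.36), Gfap (-5.32) and Slc1a2 (-2.33), and Mbp was at -7.44. Aldh1l1, with 0.92 ± 0.46, and Slc1a3, with 0.15 ± 0.53, were not called, nor were they without replicate 3, at 1.08 and -1.14. The calls on Aqp4 and Gfap were lost when only the 2 groups were fitted. Of all genes tested 26.3% were called, 13.3% higher and 13.1% lower. Other astrocyte genes differed in both directions: of 16 other astrocyte genes tested 2 were higher and 9 lower at DIV28 (median log2 difference -2.02), whereas of 6 reactive astrocyte genes tested 5 were higher and none lower (median 3.94), against a median of 0.03 over all genes tested. Cd44 was at 1988 against 31.6 normalized counts, Serpina3n at 1088 against 31.2, Vim at 797 against 42.3 and Osmr at 39.9 against 3.27. Vim at DIV28 was not above its DIV0 mean given above, from cells that had not met astrocytes. Vessel cells and progenitors also express Vim. In the other direction Gpc5, a proteoglycan gene of astrocytes, was at 0.872 against 188, S100b was lower by a log2 difference of -3.17 and Slc7a10 was at 0 against 19.5. Of 11 other oligodendrocyte genes 10 were lower, with Mobp, Ugt8a, Mag and Mog at 0 in all DIV28 libraries against 572, 174, 150 and 67.4 at P21. Of 8 endothelial genes 2 were higher and 4 lower at DIV28. Their sum was 337 to 778 normalized counts there, nearly all of it from Ly6c1 and Flt1, with means of 375 and 159, while Cldn5, Emcn and Tek were at 0. At P21 it was 36.4 to 84.4, and its part was not tested.

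Microglia RNA was low in all libraries, and the 3 members did not move together. Aif1 had no count in 10 of the 28 libraries and was never above 10 normalized counts. Csf1r was above 10 in 9 libraries, all from tissue, and was highest at E13.5, with 39.7 and 11.6 normalized counts. In culture Csf1r had no count in either DIV0 library and was at 5.79, 1.94 and 2.92 at DIV28. Its exons overlap those of Hmgxb3, as said above. Cx3cr1 was at 0 at E10.5, DIV0 and DIV7 and at 16.2, 30.04 and 10.2 normalized counts at DIV28, at least 3.98-fold above DIV7 and at least 4.43-fold above DIV0 with each library at 0 set to 3 counts. All 3 DIV28 values are thus above those of every earlier culture library. When the filter on low counts was left out, Cx3cr1 was called higher at DIV28 than at DIV7 and DIV0 (edgeR adjusted p = 0.004 and 0.00139), and all 3 members were called higher at E13.5 than at E10.5. With no filter, 1166 and 2686 of 30558 genes were called higher at DIV28 than at DIV7 and DIV0. For E13.5 over E10.5 it was 5186 of 36585.

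Many of the other microglia genes had no count in culture, and some had none at P21. Of the 18 genes listed, 14 were at 0 in every DIV0 library, 11 in every DIV7 library and 6 in every DIV28 library. At P21 5 were at 0 in every library, and the summed level was 83.9 to 113 normalized counts. Those at 0 at DIV28 were C1qa, C1qb, Itgam, Ly86, Siglech and Tyrobp. The summed level of the 18 was 101 and 111 normalized counts at DIV7 and 112 to 142 at DIV28. In the embryo the list was led by Sall1, which is not exclusive to microglia and fell from 823 to 82.8 normalized counts between E10.5 and E13.5, while Laptm5, a gene of blood-forming cells, rose from 1.02 to 112. Erythroid genes, which mark blood, summed to between 0 and 2.29 at E10.5 and to between 10440 and 10530 normalized counts at E13.5. Their part in the microglia values was not tested.

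Between cultures without and with TTX the 2 glutamate transporters differed in opposite directions in each of 3 pairs, and these differences were called only with the replicate number as a block. Slc1a2 was at 162, 146 and 433 normalized counts without TTX and at 94.1, 53.7 and 175 with it, lower in 3 of 3 pairs. Slc1a3 was at 12.7, 15.2 and 80.9 and then at 30.9, 100 and 160, higher in 3 of 3 pairs. The groups overlap for both genes, and replicate 3 is the highest in each condition. In the fit without the replicate numbers neither was called: the log2 changes were -1.24 ± 0.47 for Slc1a2 and 1.403 ± 0.72 for Slc1a3, with edgeR adjusted p-values of 0.479 and 0.713, and 0.683% of all genes tested were called. DIV28 cultures of the same number were grown in parallel, and with the replicate number as a block over the 6 libraries both were called, with -1.20 ± 0.18 (edgeR adjusted p = 0.00106) and 1.70 ± 0.37 (edgeR adjusted p = 0.00902). The fibroblast genes also differed in pairs 1 and 2, with 414 and 311 normalized counts without TTX and 1349 and 1481 with it, and were near the limit of detection in pair 3. Their part was not tested. With the block 281 of 10764 genes tested were called. The same 6 libraries without it gave 65, and the fit of all culture libraries gave 88 of 12890. The other 4 astrocyte and oligodendrocyte members were under the filter on low counts in that fit. With both libraries numbered 3 left out and no block, the changes were -1.11 and 2.22 and were not called.

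For Aqp4 and Gfap the sign of the fitted change under TTX depended on TTX replicate 3. Aqp4 was at 3.87, 19.5 and 112 normalized counts with TTX, higher than the untreated partner in 3 of 3 pairs, the first of which holds 3 counts against 1. The log2 change of 1.17 ± 1.16 was not called (edgeR adjusted p = 0.929). It became -0.61 when TTX replicate 3 was left out and its untreated partner, at 51.05 normalized counts, was kept. That fit breaks the pair, so it does not bear on the direction within pairs. Gfap was at 11.6, 9.23 and 180, higher in 2 of 3 pairs. Its change of 0.61 ± 1.12 became -2.04 without TTX replicate 3, again with the untreated partner kept. Aldh1l1 was lower in 2 of 3 pairs and Mbp in 3 of 3, with 6.44, 0 and 0 normalized counts under TTX. The change of Mbp, -2.38 ± 0.92, was not called (edgeR adjusted p = 0.498), though it was without TTX replicate 1, when both remaining TTX libraries were at 0. Cx3cr1 was at 12.9, 1.09 and 13.9 under TTX and overlapped the untreated cultures. Of the 12 other astrocyte genes tested 1 fell, Ntsr2, from 77.1 to 9.34 normalized counts (edgeR adjusted p = 0.0984), a call lost without DIV28 replicate 1 or 2 or TTX replicate 1 or 2.

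**Figure D4:**
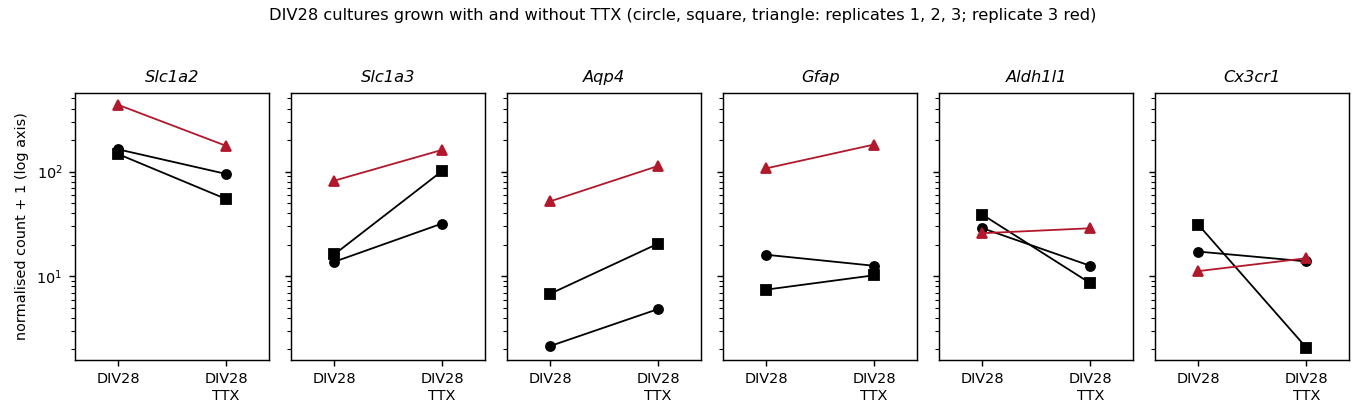
Normalized counts plus 1 (log axis) of 6 glial marker genes in DIV28 cultures grown without and with TTX, each line joining the libraries of 1 replicate number; replicate 3 is red. Slc1a2 goes down and Slc1a3 and Aqp4 go up in 3 of 3 pairs, and replicate 3 is above the other 2 replicates for Slc1a2, Slc1a3, Aqp4 and Gfap in both conditions.

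ATAC-seq marks stretches of chromatin that an enzyme can enter, and a peak at a start site is usual for genes in use. The authors called peaks in each of the 22 libraries, 93736 to 273452 in number, and 65.7% to 73.3% of protein-coding genes had a peak within 1000 bases of an annotated start. From E13.5 on, ATAC nuclei had been sorted by fluorescence and included thoracic cord, whereas tissue RNA came from bead-bound nuclei of brachial and lumbar cord, so the 2 assays did not share preparations. The RNA counts are per gene and do not tell from which start a transcript came. Over the 9 members and 22 libraries, 126 of 198 pairs had such a peak. Split by protein-coding starts, where 49.1% to 59.0% of all start groups had a peak, the start sites of the members fell into 3 kinds. The first had a peak nearly everywhere. The upstream start of Slc1a2, shown above, had one in 22 of 22 libraries, with a fold enrichment between 3.59 and 18.3, and the highest value belonged to an E13.5 library. Slc1a2 RNA was lowest among the tissue ages at E13.5. The upstream start of Mbp, from which golli transcripts begin (chr18:82475146 on the plus strand), also had a peak in 22 of 22, with a fold enrichment of 3.41 to 9.79. The Slc1a3 start had one in 19 of 22.

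The second kind had few or no peaks. The protein-coding start of Gfap had a peak in 1 of 22 libraries, from DIV0, and in 0 of 14 tissue libraries. A peak did lie farther upstream in 21 of 22 libraries, at the start of a non-coding Gfap transcript (chr11:102900912), with a fold enrichment from 4.08 to 26.4 that was highest at E13.5, where Gfap RNA was at 0. The internal start of Slc1a2 had none in 22 libraries. The downstream start of Mbp, which serves the myelin transcripts, had a peak in 6 of 22 libraries, all from tissue: both at P56, both at 2 years, 1 at P21 and 1 at E13.5, with a fold enrichment between 1.69 and 3.28. The most upstream protein-coding start of Aqp4 had none in 22 libraries. The most downstream one had a peak in 4 libraries, none of them from P4 or later tissue. In P4 replicate 1 a peak lay near another annotated Aqp4 start that is not protein-coding, with a fold enrichment of 3.21. The Aldh1l1 start stood between these kinds, with a peak in 10 of 22 libraries at a fold enrichment of 2.18 to 10.3.

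The third kind had peaks in part of the libraries, cultures from DIV7 on among them. The Csf1r start had a peak in 6 of 8 culture libraries, the 2 without one being those of DIV0, at a fold enrichment of 3.25 to 7.79. It had a peak in 7 of 14 tissue libraries at 2.4 to 3.1. A second Aqp4 start had peaks in 4 culture libraries from DIV7 on and in none from tissue, and the 2 Aif1 starts had peaks in 4 and 3 libraries, 3 of each from culture. Neither Cx3cr1 start, the first of which is shown above, had a peak in any of 22 libraries, those of DIV28 among them. Peaks were called per library at unknown depth, so the absence of a peak does not show closed chromatin, and no test was made of these values.

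**Figure D5:**
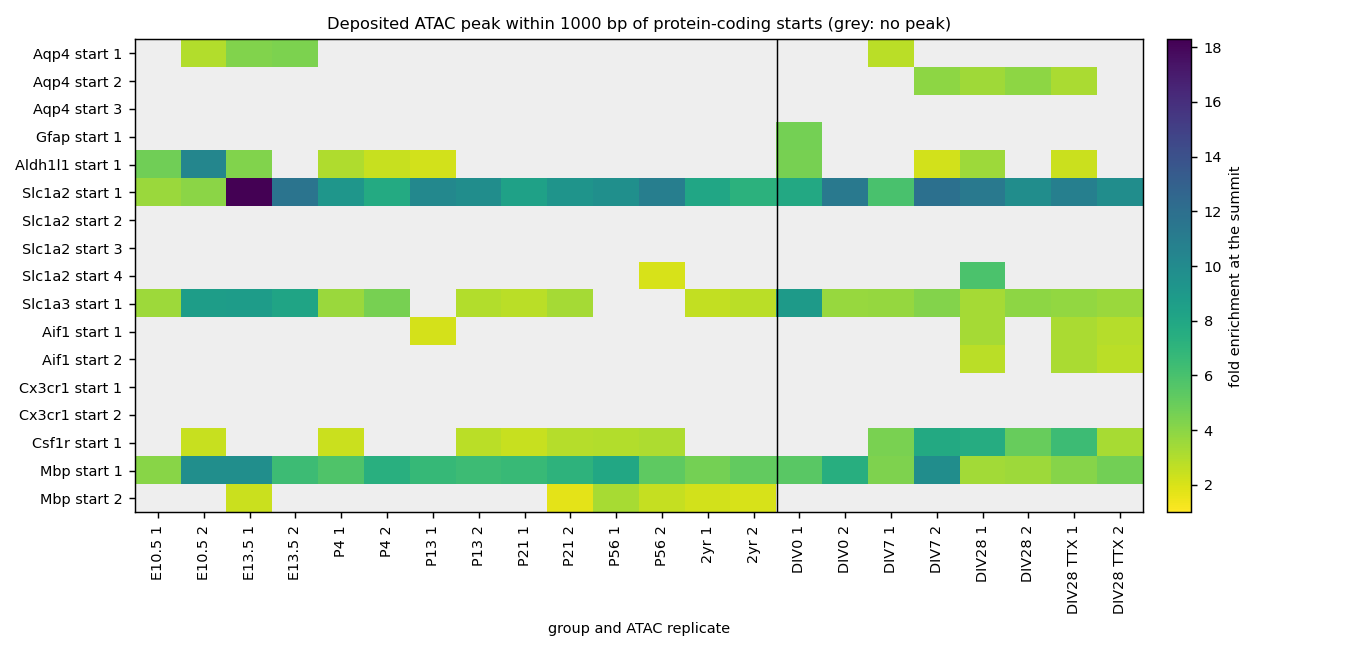
Fold enrichment at the summit of the ATAC peak within 1000 bases of each protein-coding start group of the 9 genes, for each of the 22 ATAC libraries, tissue left of the black line and culture right of it; grey means no peak. Slc1a2 start 1 and Mbp start 1 have a peak in 22 of 22 libraries, Gfap start 1 in 1 and the Cx3cr1 starts in 0.

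Ordered from the highest to the lowest group mean, most neighbouring groups overlapped. For Aqp4 the order was P4, P13, P21, P56, DIV7, 2 years, TTX, DIV28, E13.5, E10.5 and DIV0, and 7 of the 10 neighbouring pairs overlapped in their libraries, with the exceptions of P4 against P13, P13 against P21 and E13.5 against E10.5. For Gfap the order began with P13, P4 and 2 years, and 7 of 10 pairs overlapped. For Slc1a2 it began with P4, P21, P13 and E10.5 and ended with TTX, with 8 of 10 overlapping. Slc1a3 began with DIV7, E13.5 and P4 and Aldh1l1 with DIV7 and P4, with 9 and 7 pairs overlapping. Mbp had the fewest overlapping pairs, 5 of 10, in the order P13, P21, P4, P56, 2 years, E10.5, DIV0, E13.5, DIV28, DIV7 and TTX.

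The genes whose levels were most like those of a member over the 28 libraries, by Pearson's r of log2 normalized counts plus 1 among 20786 genes, are given as a description, since the libraries share groups and depth. For Aqp4 they were Gm43341 (0.949) and Gfap (0.946), and for Gfap they were Aqp4 and Gm44680 (0.943). For Mbp they were Padi2 (0.948) and Eya4 (0.935), and for Slc1a2 Fat3 (0.939) and Camkv (0.872). Slc1a2 was more like Mbp (0.828) than like Aqp4 (0.454), Gfap (0.481) or Slc1a3 (-0.01). For Slc1a3 they were Akr1c14 (0.868) and Kctd12 (0.842), for Aldh1l1 Bmper and Gfra2 (0.865 each), for Csf1r Lcp1 (0.87) and for Cx3cr1 Idh3a (0.869) and Pcp4 (0.866).

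The change over maturation was also compared between dish and cord, as the change from DIV0 to DIV28 less the change from E13.5 to P21. This difference was called for 4 of the 6 members tested, where 41.7% of all genes were. It was 3.78 ± 0.88 for Slc1a3 (edgeR adjusted p = 0.000785), which fell between P4 and P13 in tissue, and 5.18 ± 0.97 for Aldh1l1 (edgeR adjusted p = 8.77e-05), a value that depends on the 2 counts at DIV0. It was -2.77 ± 0.46 for Slc1a2 (edgeR adjusted p = 2.22e-05) and -9.57 ± 0.45 for Mbp (edgeR adjusted p = 1.2e-12). The Slc1a3 call was lost without E13.5 replicate 1 (3.43), DIV0 replicate 1 (3.62), DIV0 replicate 2 (4.11) or DIV28 replicate 3 (2.55). Without DIV28 replicate 3 those of Aldh1l1, Slc1a2 and Mbp, at 5.39, -3.35 and -9.68, were called.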

How the data were processed

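RNA was measured in 28 libraries and open chromatin in 22, 2 per group. The reads had been trimmed with Trim Galore (cutadapt 0.6.2) and aligned to mm10 with STAR 2.5.2b by the authors, and the deposited expected counts per gene are estimates from RSEM 1.3.0, 1 table per library, per the submitters' processing notes. The deposited tables also give TPM, which entered no result. ATAC reads had been aligned with BWA 0.7.1.7, and the authors called peaks per library with MACS2 2.2.7.1; the deposited peak lists give the fold enrichment at the summit as a linear ratio and −log10 of the p-value. RNA libraries came from a stranded total RNA kit with ribosomal RNA depletion.

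Expected counts were rounded and tested with edgeR 4.0.16 (R 4.3.3; quasi-likelihood test, TMM factors, 1 coefficient per group) in 3 fits: 18 tissue libraries, 10 culture libraries, and all but the TTX libraries. Genes needed a CPM of at least 5 in every replicate of 1 group. Calls needed an unadjusted p under 0.001 and a fold of 2, as in the study, and Benjamini-Hochberg adjusted p-values over all genes tested are printed. A fitted log2 change against a group near 0 depends on edgeR's prior count. Limits (3 counts per library) or count ratios with exact conditional intervals at 95% are therefore printed in its place for most such comparisons. Some fitted values of this kind are still given, such as Gfap from DIV0 to DIV28 and Aldh1l1 and Aqp4 in culture against tissue. For levels, expected counts were divided by median-of-ratios size factors, from the 12842 genes above 0 in all 28 libraries. Lengths are merged exons of GENCODE vM21 (55144 of 55385 genes matched by Ensembl ID). Total counts per library ran from 2704682 to 21823500. No replicate pair held identical values or differed by as little as sampling noise.

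The TTX and untreated DIV28 cultures share replicate numbers and were grown in parallel. Deviations from the group means correlated at 0.686, 0.568 and 0.74 for libraries of the same number and at -0.223 to -0.44 for the others. Such deviations cancel out within a group, so positive values for the same number push the others below 0. The number was taken to pair the libraries because the cultures were grown in parallel. The replicate block is printed beside the TTX result. Alternatives were DESeq2 1.42.0, median-of-ratios factors, no filter on low counts, only the compared groups, an adjusted p under 0.05, leaving out each replicate, the retitled library placed as titled, other scalings, and other windows and limits for peaks. The members and lists were chosen with earlier results of these data known. The text names the members, at most 4 called genes of each list with the largest change in a comparison, and the 2 genes most like a member; the genes named as at 0 were chosen after their values were seen. Some genes that meet this rule are not reported here. The edgeR fits were tested on simulated data. Calculations outside R used Python 3.11.15 with pandas 2.3.3, numpy 2.4.6 and scipy 1.17.1, and plots matplotlib 3.10.9.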

Additional observations from a re-analysis of the deposited data

Results flagged for a closer look

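For 4 members the change over maturation in culture, from DIV0 to DIV28, differed from the change in tissue, from E13.5 to P21, by the interaction term of the edgeR fit, under the limits that called 41.7% of all genes tested. The difference (culture minus tissue, log2) was -2.77 for Slc1a2, 3.78 for Slc1a3, 5.18 for Aldh1l1 and -9.57 for Mbp. The Aldh1l1 value depends on 2 counts at DIV0. No group held enough samples to test single libraries as outliers.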

How the results depend on the processing

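Across the alternatives, 116 of 154 counts of calls and summed levels stayed within the limits of a like value and 38 moved. Of the values for members 759 kept direction and call, 38 gained and 35 lost a call and 22 changed sign; of those for list genes 486 kept both and 38 lost the call. The number of called genes changed from 6621 to 3717 (E13.5 over E10.5), 103 to 191 (2 years over P56) and 1440 to 2488 (DIV7 over DIV0) when only the compared groups were fitted. With no filter on low counts it went from 1097 to 1701 (P21 over P13), 26 to 115 (P56 over P21), 103 to 281, 1440 to 2657, 993 to 2232 (DIV28 over DIV7), 2447 to 4180 (DIV28 over DIV0) and 88 to 365 (TTX); at an adjusted p under 0.05 these 7 were 1659, 8, 60, 2784, 2031, 4279 and 27. DESeq2 gave 1627 (DIV28 over DIV7) and 187 (TTX), and the replicate block over the 6 libraries with and without TTX gave 281, against 65 in the same libraries with no block. Slc1a2 and Slc1a3, the 2 members tested with the block, were both called. With the library titled DIV0 replicate 3 placed in DIV0, the counts were 168 (DIV7 over DIV0), 118 (DIV28 over DIV7), 14 (DIV28 over DIV0) and 12 (TTX), and many calls on culture lists were lost. Of the P21 over P13 calls 226 were higher and 871 lower, against 323 and 720 with median-of-ratios factors; for 2 years over P56 it was 75 and 28 against 59 and 35, or 61 and 49 with DESeq2.

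Leaving out 1 library, the counts ranged over 6009 to 6612 (E13.5 over E10.5), 4635 to 6635 (P4 over E13.5), 1287 to 1902 (P13 over P4), 705 to 989 (P21 over P13), 18 to 32 (P56 over P21), 59 to 82 (2 years over P56), 725 to 916 (DIV7 over DIV0), 403 to 839 (DIV28 over DIV7), 1303 to 2249 (DIV28 over DIV0), 56 to 100 (TTX), 4602 to 5884 (DIV0 over E13.5), 3419 to 4373 (DIV28 over P21) and 5312 to 6765 (culture against tissue). Counts moved over 1.5 times without P13 replicate 1 (1287), P13 replicate 2 (705), P56 replicate 2 (65), either 2-year library (67 and 59), either DIV0 or DIV7 library (725 to 916), DIV7 replicates 1 and 2 (488 and 403 for DIV28 over DIV7), DIV0 replicates 1 and 2 (1303 and 1333 for DIV28 over DIV0) or DIV28 replicate 2 (56 for TTX).

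Signs changed for Slc1a3 in P4 over E13.5 (-0.069 with DESeq2, -0.066 with median-of-ratios factors, -0.175 with no filter, -0.021 with only the compared groups, leaving out 1 library -0.20 to 0.343, below 0 without E13.5 replicate 2 or P4 replicate 1) and in 2 years over P56 (-0.76 without 2-year replicate 2 to 0.594). Slc1a2 in DIV7 over DIV0 ranged from -0.267 without DIV7 replicate 2 to 0.291, with -0.128 without DIV0 replicate 1, and was -0.003 with the retitled library in DIV0. That placement also gave -1.449 (Slc1a3), -1.882 (Gfap) and -2.158 (Aqp4) in DIV28 over DIV0, 2.79 for Aqp4 in DIV0 over E13.5, -1.151 for Slc1a3 in DIV28 over P21 and -8.205 for Aqp4 in culture against tissue. Over the left-out libraries, with the lowest value without DIV28 replicate 3, Slc1a3 ran from -0.111 to 1.622 in DIV28 over DIV0 (-0.115 with TTX replicate 3 also out) and from -1.136 to 0.593 in DIV28 over P21, and Aqp4 from -0.667 to 1.837 in culture against tissue. Under TTX, Gfap ran from -2.045 without TTX replicate 3 to 2.665 without DIV28 replicate 3, and Aqp4 likewise from -0.613 to 3.351. Which property of these libraries moved the values was not tested. Of 198 pairs of member and ATAC library 126 had a peak, 106 with −log10 p of at least 5, 122 with a narrower and 133 with a wider window, and 99 at protein-coding starts alone, a setting chosen after seeing the data, as was leaving out both libraries numbered 3. At low counts the depth limits what can be seen of the microglia genes.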

Other observations

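Other cell types followed courses of their own in these libraries. The summed level of 8 oligodendrocyte precursor genes was 1695 to 1923 normalized counts at P4, before Mbp was highest, and 188 to 209 at DIV28, while it stood at 5601 to 6555 at DIV0. Vcan, a matrix proteoglycan gene that other cells also use, made up most of it at P4 and nearly all at DIV0, with means of 1240 and 6029. The 8 genes of neural progenitors and radial glia summed to between 7415 and 9551 at E10.5 and to between 62.9 and 102 at P21. The 10 reactive astrocyte genes summed to between 9248 and 13830 at E13.5, to between 123.1 and 138 at P21, and to between 3864 and 4171 at DIV28. At E13.5 nearly all of it was Vim, with a mean of 11230, which vessel cells and progenitors also express. Under TTX this sum was 4704 to 6213, above each untreated DIV28 library, with 0 of 5 genes tested called.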
